A study of Mus musculus with 416 samples.

Results

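Pdyn, Tac1, Chrm4, Isl1, Sfxn1 and Eya1 are 6 genes described as enriched in the neurons of the direct pathway of the striatum, and their rows were taken from the deposited table by gene symbol (6 of 46517 Ensembl gene IDs). All 6 passed the filter on low counts, which left 22968 genes. Their level, spread and covariation with each other and with Drd1, the gene of the D1 dopamine receptor, were followed over 416 striatum libraries, each from 1 drug-naïve mouse of the J:DO stock (Diversity Outbred, bred from several inbred founder strains). The labels hold sex and breeding generation, and no treatment, age or sequencing batch. Libraries labelled female numbered 76 in generation 21, 60 in generation 22 and 72 in generation 23, and those labelled male numbered 74, 59 and 75 in the same order. No animal was treated, so sex and generation were the only groups, and each mouse is genetically unlike the others.

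The striatum receives the main cortical and thalamic input to the basal ganglia, and most of its neurons are GABAergic spiny projection neurons. Neurons of the direct pathway carry the D1 receptor and project to the output nuclei, and their activity is known to favour movement. Neurons of the indirect pathway carry the D2 receptor (Drd2), an adenosine receptor (Adora2a) and the opioid precursor Penk. Direct-pathway neurons are classically told from them by 2 peptide precursors. Pdyn (ENSMUSG00000027400, chromosome 2) is the precursor of dynorphins, ligands of the kappa opioid receptor, and Tac1 (ENSMUSG00000061762, chromosome 6) is the precursor of substance P and neurokinin A. Chrm4 (ENSMUSG00000040495, chromosome 2) encodes the M4 muscarinic acetylcholine receptor, which couples to inhibitory G proteins and opposes D1 signalling in these cells. Isl1 (ENSMUSG00000042258, chromosome 13) is a LIM-homeodomain transcription factor of developing direct-pathway neurons that cholinergic interneurons also use. Sfxn1 (ENSMUSG00000021474, chromosome 13) encodes a mitochondrial serine carrier. Eya1 (ENSMUSG00000025932, chromosome 1) is a transcriptional coactivator and phosphatase that partners with factors of the sine oculis family. In bulk tissue, fewer cells of a type and less RNA per cell cannot be told apart.

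The start sites of Sfxn1 and Drd1 lie 16.2 kb apart on chromosome 13 and point away from each other, with no gene of the table annotated between them in GENCODE M21. RefSeq gives windows of 300 bases, 250 before and 50 after an annotated start (build GRCm38.p6), for 5 of the 6 genes and for Drd1. The table holds 2 windows for Drd1 and 2 for Pdyn, of which the first is shown, and neither second window held TGACG or CACGTG. The windows of Drd1, of its neighbour Sfxn1 and of both peptide genes were chosen because Tac1 followed Drd1 more closely than any other of the 6 genes and Pdyn much less so. Capitals mark TGACG, the core of the cyclic AMP response element, on either strand, and the E-box CACGTG.
Drd1, chr13:54055609-54055908, minus strand: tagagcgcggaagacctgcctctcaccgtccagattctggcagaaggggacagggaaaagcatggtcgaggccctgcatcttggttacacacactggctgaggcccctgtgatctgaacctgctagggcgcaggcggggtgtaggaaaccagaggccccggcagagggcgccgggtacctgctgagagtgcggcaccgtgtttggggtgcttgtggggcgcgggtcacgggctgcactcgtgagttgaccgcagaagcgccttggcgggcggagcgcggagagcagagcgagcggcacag
Sfxn1, chr13:54071595-54071894, plus strand: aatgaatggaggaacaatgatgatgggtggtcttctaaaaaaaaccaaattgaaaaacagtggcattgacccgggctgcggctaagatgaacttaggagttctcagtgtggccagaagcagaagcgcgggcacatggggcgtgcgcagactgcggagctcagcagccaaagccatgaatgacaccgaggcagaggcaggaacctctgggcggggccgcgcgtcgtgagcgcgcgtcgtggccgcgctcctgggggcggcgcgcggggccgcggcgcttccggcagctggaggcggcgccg
Tac1, chr6:7554811-7555110, plus strand: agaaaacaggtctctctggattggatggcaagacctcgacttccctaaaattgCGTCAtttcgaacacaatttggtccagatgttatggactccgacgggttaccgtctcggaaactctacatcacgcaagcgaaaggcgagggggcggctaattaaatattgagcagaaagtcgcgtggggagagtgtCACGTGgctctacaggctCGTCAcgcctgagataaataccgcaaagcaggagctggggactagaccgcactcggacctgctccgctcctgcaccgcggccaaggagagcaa
Pdyn, chr2:129699889-129700188, minus strand: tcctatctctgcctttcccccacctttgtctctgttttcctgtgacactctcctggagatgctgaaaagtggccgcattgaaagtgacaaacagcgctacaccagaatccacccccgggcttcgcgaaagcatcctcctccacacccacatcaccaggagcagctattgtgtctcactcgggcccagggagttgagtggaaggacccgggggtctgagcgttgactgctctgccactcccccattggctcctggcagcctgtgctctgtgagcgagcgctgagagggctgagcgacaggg
TGACG was found in 20.8% and CACGTG in 7.15% of all 32851 windows, and the 2 motifs do not overlap in the Tac1 window. The Tac1 window held TGACG at 2 places and CACGTG at 1, and the Isl1 window, not shown, also held TGACG at 2 places. The full palindrome TGACGTCA (1.79% of windows), TGANTCA (7.81%) and TATAAA (13.6%) were in none of the windows of these genes. A match describes letters only.

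Total counts ran from 20331737 to 77458200 per library (median 43516282). Levels are given as CPM, the counts of a gene relative to the library total after TMM scaling. Xist went against the labelled sex in 29 libraries (6.97%), with a limit of 100 CPM. A different set of 29 libraries stood apart, 28 of them by a low correlation with the other libraries and 1 by a low total. It held 14 libraries of generation 21, 6 of generation 22 and 9 of generation 23, and 4 of its libraries were also among those against the labelled sex. The summed CPM of 9 cortical excitatory markers had a median of 507 in the libraries that stood apart, against 129.2 in the others. The summed CPM of 6 choroid plexus markers had a median of 677 in the libraries that stood apart, against 13.04 in the others, and none of the markers of either list was at 0 in all libraries of a set. The main comparisons of the 6 genes are given with and without the libraries that stood apart.

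Per length, the peptide and receptor genes were the abundant members and the 3 others were low. Medians over the 416 libraries were 31.7 CPM per kb of exon for Tac1, 25.9 for Chrm4, 23.2 for Pdyn, 4.48 for Sfxn1, 3.18 for Isl1 and 1.67 for Eya1, against 85.4 CPM per kb for Drd1 and 49.4 for Drd2. The middle 90% of libraries spanned 21.3 to 39.2 CPM per kb for Tac1, 18.9 to 32.1 for Chrm4 and 15.6 to 34.2 for Pdyn, so these neighbours in the order overlapped. Sfxn1 spanned 3.64 to 5.68 CPM per kb, Isl1 2.11 to 3.86 and Eya1 1.08 to 2.34, each overlapping the next. The lowest 5th percentile of the upper set (15.6, Pdyn) lay above the highest 95th percentile of the lower set (5.68, Sfxn1). The full ranges did overlap, as the lowest Pdyn was 0.305 CPM before division by length. Exon lengths are those of GENCODE M21, and whether the authors counted over the same exons is not known.

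Over all 416 libraries the SD of log2 CPM was 0.512 for both Pdyn and Tac1, 0.384 for Eya1, 0.337 for Chrm4, 0.321 for Isl1 and 0.193 for Sfxn1. Among the libraries that did not stand apart (416 less 29, called the remaining libraries from here on) Pdyn had the widest spread. Its level in CPM had a mean of 69.7 ± 15.6 (SD over the remaining libraries), with a lowest value of 34.6, a median of 67.7 and a highest value of 121.5. Its SD on the log2 CPM scale was 0.322, larger than that of 91.6% of the 10758 genes that averaged 3 or more on that scale. Eya1 came next, with a level of 13.4 ± 2.79 CPM and a log2 SD of 0.305. Isl1 had a level of 12.4 ± 2.08 CPM and a log2 SD of 0.265, and Tac1 a level of 108.4 ± 17.5 CPM and a log2 SD of 0.239. Chrm4, with 37.5 ± 5.37 CPM, had a log2 SD of 0.209, and Sfxn1, with 44.7 ± 6.07 CPM, had one of 0.191. Drd1 varied as little as Sfxn1, with 308.1 ± 38.3 CPM and a log2 SD of 0.192. The median log2 SD of the 10758 genes was 0.151, so all 6 members and Drd1 varied more than the median gene.

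Counting error was smaller than this spread. The mean count per library was 534 for Isl1, the lowest of the 6, which gives a counting error of 4.32% for a single library, against a coefficient of variation of 16.8% among the remaining libraries. For Tac1, with a mean count of 4621, the counting error was 1.47% and the coefficient of variation 16.2%. Reads of 1 library are not all independent molecules, so these figures cover counting error only.

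**Figure D1:**
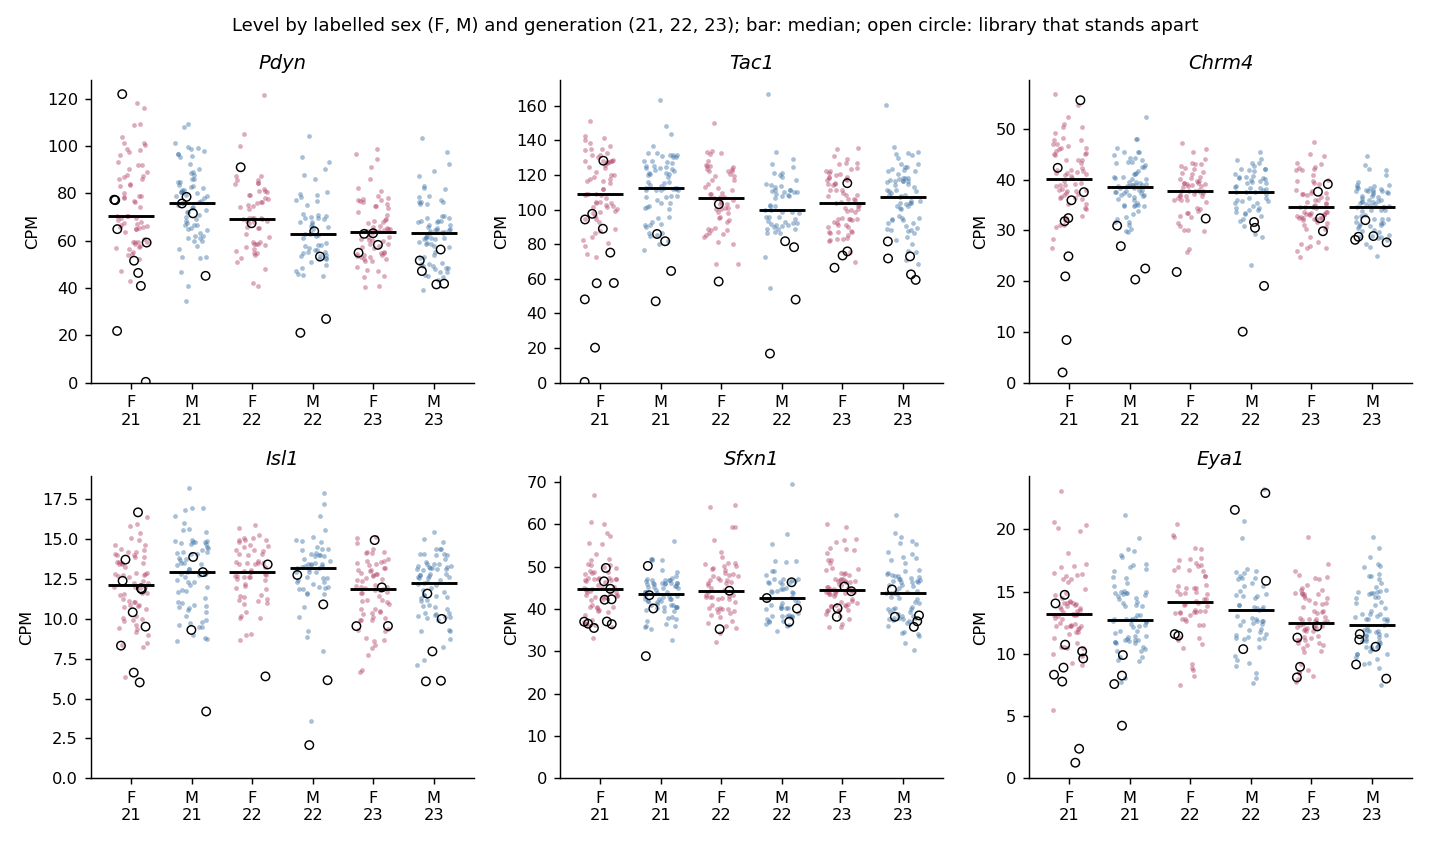
Level of each gene in CPM (vertical axes, from 0) in every library, by labelled sex (F, M) and generation (21, 22, 23). Points are libraries, bars are group medians, and open circles are the 29 libraries that stood apart. Tac1 and Chrm4 reach their lowest values (0.366 and 1.99 CPM) in libraries that stood apart, whereas Sfxn1 stays between 28.9 and 69.5 CPM throughout.

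In a few libraries Drd1 was very low, and there the 6 genes parted. In the library female, generation 21, replicate 34, Drd1 was at 1.53 CPM and Drd2 at 1.53 CPM, while the thalamic marker Prkcd was at 1352 CPM. Pdyn was at 0.305 CPM, Tac1 at 0.366, Chrm4 at 1.99 and Eya1 at 1.26 in that library, the lowest level of each among the 416. Isl1 was at 16.7 CPM there, its highest level among libraries labelled female and above its 95th percentile over all 416 (15.3 CPM). Sfxn1 was at 37.03 CPM there, inside the range of the other libraries. In the library male, generation 22, replicate 29, Drd1 was at 59.5 CPM and the cortical marker Neurod6 at 138.3 CPM. Isl1 was at its lowest level of all, 2.09 CPM, in that library, and Eya1 at 22.9 CPM was among its 4 highest. The level of Sfxn1 there was 40.1 CPM. The same library was the second lowest of Pdyn (21.04 CPM) and Tac1 (16.8 CPM). The library of lowest Sfxn1, male, generation 21, replicate 26, had 28.9 CPM, with Drd1 at 134.6 CPM and the choroid plexus marker Ttr at 13849 CPM. Isl1 was thus low in the library of replicate 29, rich in cortical markers, and not in that of replicate 34, rich in thalamic markers. Eya1 went the other way round in these 2 libraries. Its high level did not hold in all libraries with a high level of a cortical marker. The library male, generation 22, replicate 31, had Eya1 at 21.6 CPM and Neurod6 at 118.3 CPM. But Eya1 was at 11.5 CPM in female, generation 22, replicate 52, and at 11.1 CPM in male, generation 23, replicate 10. The cortical marker Tbr1 was at 117.6 and 113.3 CPM in those 2, and Neurod6 at 41.7 and 31.9 CPM. In male, generation 22, replicates 29 and 31, Tbr1 was lower, at 45.1 and 34.3 CPM. Tbr1 and Neurod6 thus differed in opposite directions between these libraries, which were not alike in their cortical markers. The replicate numbers only name libraries.

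**Figure D2:**
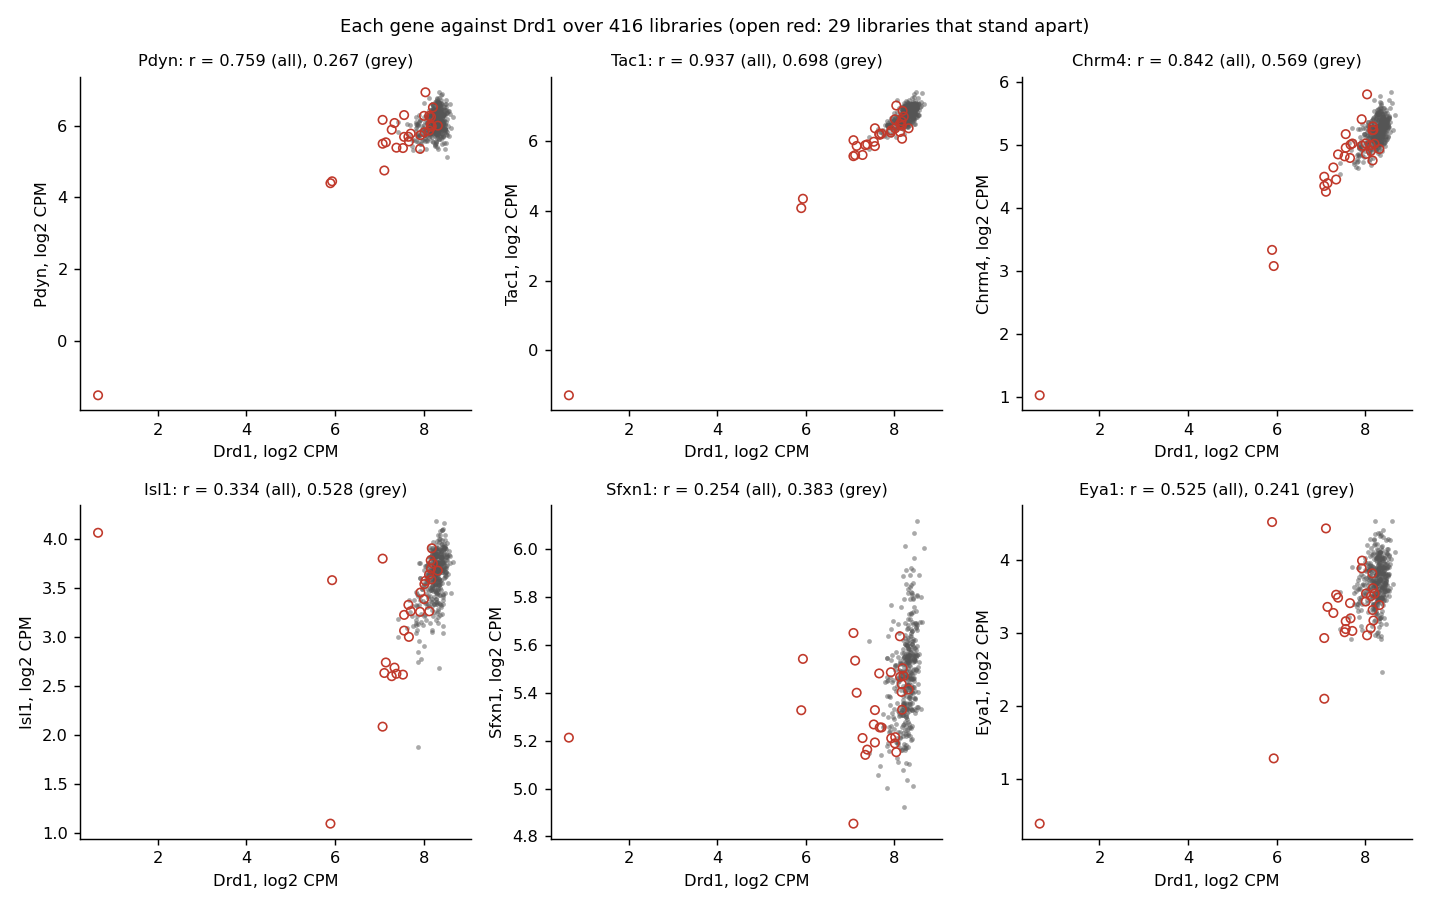
Log2 CPM of each gene (vertical axes) against log2 CPM of Drd1 (horizontal axes) over 416 libraries. Red open circles are the 29 libraries that stood apart, grey points the remaining libraries, and r is Pearson's coefficient. Tac1 keeps the highest coefficient among the grey points (r = 0.698), and the high pooled r of Pdyn (0.759) is 0.267 among the grey points.

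Tac1 followed Drd1 most closely in both sets of libraries. Over all 416 libraries Pearson's r of log2 CPM with Drd1 was 0.937 for Tac1, 0.842 for Chrm4, 0.759 for Pdyn, 0.525 for Eya1, 0.334 for Isl1 and 0.254 for Sfxn1. All 6 had an adjusted permutation p under the threshold of 0.05, the highest being 0.000478 for Isl1. Adjustment was over all correlations computed in a set of libraries (6 with Drd1, 15 pairs, and those of each gene with 4 marker genes and 15 list scores). Other genes were not tested against Drd1 in this way, so the count has no share over all genes beside it. The pooled values of Pdyn rested on a few libraries: without the 2 farthest on the Drd1 axis its r was 0.394, and its rank correlation over all 416 was 0.286. Isl1 moved the other way, with r = 0.571 without those 2 libraries and rho = 0.49 over all 416. For Eya1 the r without those 2 libraries was 0.427 and rho was 0.27. Sfxn1 gave r = 0.346 without them and rho = 0.43, and Tac1 gave r = 0.814 and rho = 0.672. For Chrm4 they were r = 0.707 and rho = 0.542.

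The order of the genes was different without the libraries that stood apart. Over the remaining libraries the log2 CPM of Tac1 and Drd1 had a Pearson r of 0.698 and a Spearman rho of 0.626, each with a permutation p of 1e-05, the smallest that 100000 permutations can give. The adjusted p was 2.33e-05 for r. Chrm4 came second (r = 0.569, rho = 0.495), then Isl1 (r = 0.528, rho = 0.455) and Sfxn1 (r = 0.383, rho = 0.407), each with the same permutation and adjusted p for r. Pdyn (r = 0.267, rho = 0.232, permutation p = 1e-05 for r) and Eya1 (r = 0.241, rho = 0.212, permutation p = 1e-05) were the weakest. Without the 2 libraries farthest from the median of Drd1, the 6 values of r lay between 0.223 (Eya1) and 0.676 (Tac1), and the order among them was kept.

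Covariates changed some of these values. With 6 marker list scores regressed out of the remaining libraries, the correlation of Pdyn with Drd1 was no longer called (r = 0.019, adjusted permutation p = 0.833). Tac1 kept r = 0.509, Chrm4 0.368, Isl1 0.324, Sfxn1 0.308 and Eya1 0.209, all called. With the mean of 12 genes of all spiny projection neurons regressed out of the same libraries, Tac1 kept r = 0.321, Sfxn1 0.263, Pdyn 0.157 and Isl1 0.145, all called. Chrm4 (r = -0.016, adjusted permutation p = 0.793) and Eya1 (r = -0.065, adjusted permutation p = 0.265) then lost their call. Done over all 416, the same step left Tac1 at 0.647 and Pdyn at 0.529, and Isl1 turned to -0.342 (adjusted permutation p = 0.0003).

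Within generations, among the remaining libraries, Tac1 had r with Drd1 of 0.656 in generation 21, 0.699 in generation 22 and 0.779 in generation 23. Chrm4 had 0.421, 0.602 and 0.623, and Isl1 0.346, 0.6 and 0.578, in the same order of generations. Sfxn1 ran the other way, with 0.541 in generation 21, 0.356 in generation 22 and 0.331 in generation 23. The permutation test with adjustment over the 21 pairs called each of these values. Over all libraries of a generation, Isl1 was not called in generation 21 (r = 0.093, adjusted permutation p = 0.276), and Eya1 was not called in generation 22 (r = -0.111, adjusted permutation p = 0.257). Among the remaining libraries, Pdyn gave 0.146 in generation 21 (adjusted permutation p = 0.15), 0.254 in generation 22 and 0.296 in generation 23, the last 2 called. Eya1 gave 0.25, 0.144 and 0.252, of which the value of generation 22 was not called (adjusted permutation p = 0.206). Differences between generations in r were not tested. Among the same libraries the r of Pdyn was 0.344 within those labelled female and 0.188 within those labelled male, and the difference was not tested.

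The members also followed each other in part. Pdyn had a higher r with Tac1 than with Drd1 in both sets of libraries, and Eya1 a higher r with Chrm4 (0.262) than with Drd1 (0.241) among the remaining libraries, differences that were not tested. Of the 15 pairs, 10 had a positive r with an adjusted permutation p under 0.05 among the remaining libraries, and none had a negative r that passed. The highest was Tac1 with Chrm4 (r = 0.372), then Tac1 with Pdyn (r = 0.35), Tac1 with Isl1 (r = 0.329) and Tac1 with Sfxn1 (r = 0.317), each with an adjusted permutation p of 2.33e-05 and a rho between 0.276 and 0.356. Pdyn and Eya1 had r = -0.076 (adjusted permutation p = 0.181), and Sfxn1 and Eya1 r = -0.015 (adjusted permutation p = 0.791). Sfxn1 was correlated with Tac1 but not detectably with Pdyn (r = 0.067, adjusted permutation p = 0.236), Chrm4 (r = 0.068, adjusted permutation p = 0.23) or Isl1 (r = 0.089, adjusted permutation p = 0.114). With all 416 libraries 12 pairs passed, and the highest were Tac1 with Chrm4 (r = 0.788) and Tac1 with Pdyn (r = 0.776). All of these genes share the libraries, their depth and their scaling, so no pair is independent of the others. Pairs of other genes were not tested, so neither count shows more calls than other genes would give.

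**Figure D3:**
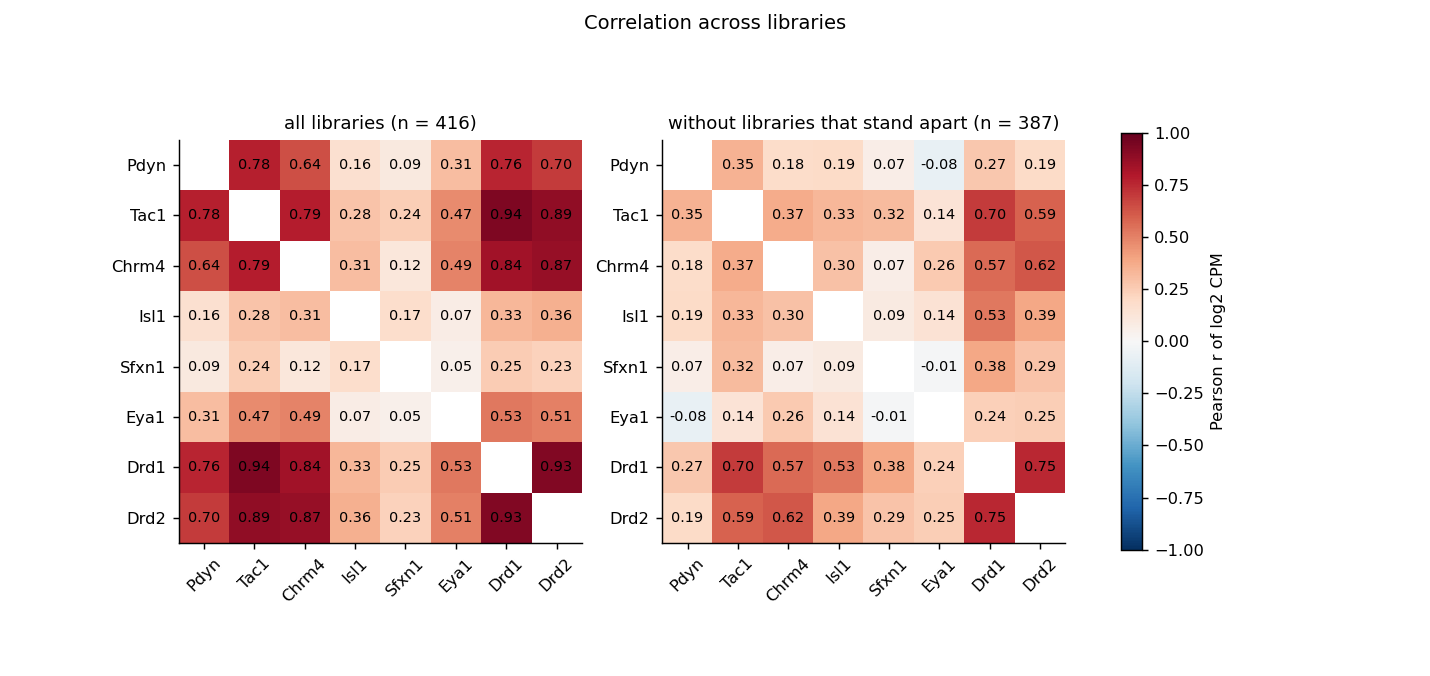
Pearson's r of log2 CPM for each pair of the 6 genes, Drd1 and Drd2, over all 416 libraries (left) and over the remaining libraries (right). Red is positive and blue negative. The highest value among the 6 genes is 0.788 on the left and 0.372 on the right.

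Genes of the indirect pathway also followed Drd1. Drd2, the D2 receptor gene of the other neuron class, had r = 0.753 with Drd1 among the remaining libraries, higher than each of the 6 members. Among all 416 its r was 0.929, higher than each member but Tac1 (0.937). These differences were not tested. With the means of sex and generation removed, Tac1 had rank 53 of 22967 genes by r with Drd1 among the remaining libraries (r = 0.713), Chrm4 rank 310, Isl1 rank 418, Sfxn1 rank 926, Pdyn rank 2801 and Eya1 rank 3110. Drd2 had rank 28. In all 416 libraries the ranks were 5 for Tac1, 61 for Chrm4, 877 for Eya1, 2467 for Isl1 and 3339 for Sfxn1, with Drd2 at rank 9 and Pdyn among the top 0.845% of genes. The median r over all genes was 0.012 among the remaining libraries, and the 95th percentile was 0.367. By this measure Pdyn (r = 0.229) and Eya1 (r = 0.212) lay below that percentile. Besides the members, the 5 genes most like Drd1 by this measure among the remaining libraries were Ryr3 (r = 0.841), Ric8b (0.836), Gng7 (0.834), Pde10a (0.822) and Rarb (0.816). In all 416 libraries they were Rgs9 (r = 0.967), Ankrd63 (0.949), Ppp1r1b (0.945), Syt6 (0.944) and Bcl11b (0.94). Rgs9, a regulator of G protein signalling, and Ppp1r1b, the phosphatase inhibitor DARPP-32, are known from both classes of spiny projection neuron.

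The genes most like each member, by the same measure over the remaining libraries and leaving out the other members, were largely different. For Tac1 they were Drd1 (r = 0.713), Six3 (0.687) and Ric8b (0.686), and for Chrm4 they were Smpd3 (0.7), Asic1 (0.681) and Ppp1r1b (0.665). Isl1 was most like Dach1 (0.543), Klhl13 (0.533) and Grm5 (0.524). Pdyn had no gene above 0.431 (Fkbp1a), Sfxn1 none above 0.419 (Syne1) and Eya1 none above 0.398 (Gli3). In all 416 libraries Chrm4 was most like Ppp1r1b (0.894), Tac1 like Drd1 (0.941), Pdyn like Ankrd63 (0.787), Isl1 like Six3 (0.66), Eya1 like Hpca (0.622) and Sfxn1 like Syne1 (0.461). These coefficients describe the libraries and carry no test.

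Chrm4 had a higher r with Drd2 and Adora2a than with Drd1, and a lower one with Penk, differences that were not tested. Among the remaining libraries its r was 0.621 with Drd2, 0.632 with Adora2a and 0.406 with Penk, beside 0.569 with Drd1. Over all 416 these were 0.868, 0.866 and 0.802, beside 0.842 with Drd1. For Tac1 the values were 0.587 with Drd2 and 0.45 with Adora2a, and for Isl1 0.388 and 0.398. Among the remaining libraries Chat, the acetylcholine synthesis gene of cholinergic interneurons, had r = 0.497 with Chrm4, 0.479 with Tac1, 0.336 with Isl1 and 0.016 with Pdyn (adjusted permutation p = 0.791). The score of 9 cortical excitatory markers was negatively correlated with each member, from -0.518 (Tac1) and -0.483 (Chrm4) to -0.142 (Eya1, adjusted permutation p = 0.00781). In all 416 libraries Chat had r = 0.547 with Pdyn (adjusted permutation p = 2.01e-05), and the cortical score gave values from -0.5 (Isl1) to -0.114 (Eya1, adjusted permutation p = 0.0238). Among the remaining libraries the score of 5 ependymal markers, genes of the cells that line the ventricle, was positively correlated with Pdyn (r = 0.325) and negatively with Eya1 (r = -0.196, adjusted permutation p = 0.000289). The score of 6 ventral striatum and striosome markers showed the same opposition, with r = 0.318 for Pdyn and -0.21 for Eya1, both with an adjusted permutation p of 2.33e-05. With all 416 libraries Pdyn kept its positive values (0.406 with the ependymal and 0.552 with the ventral striatum score), but Eya1 gave 0.003 (adjusted permutation p = 0.972) and 0.113 (adjusted permutation p = 0.0275), so its negative values were found without the libraries that stood apart and not with them. Of the correlations of the 6 members with 4 marker genes (Drd2, Adora2a, Penk and Chat) and 15 list scores, 78 passed among the remaining libraries, 53 positive and 25 negative. With all 416 libraries 89 passed, 58 positive and 31 negative. Correlations of other genes with these markers and scores were not tested. Neither count therefore shows more calls than other genes would give.

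To ask whether a gene followed Drd1 beyond what both receptor genes share, its log2 CPM was fitted on standardised log2 CPM of Drd1 and Drd2 together with sex and generation (limma, all genes). The slope on Drd1 is then a change in log2 CPM per SD of Drd1 at a fixed level of Drd2.

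Over all 416 libraries, where 1 SD of Drd1 was 0.471, 4 of 6 slopes on Drd1 were called (20.5% of all genes called positive) and 2 of 6 differences (18.8% of all genes called in that direction). Pdyn (slope 0.53 ± 0.046, adjusted p = 3.25e-24) and Tac1 (0.43 ± 0.025, adjusted p = 9.73e-49) were called for both, with differences of 0.67 and 0.38. Chrm4 (0.12 ± 0.023, adjusted p = 5.29e-06) and Eya1 (0.13 ± 0.046, adjusted p = 0.0182) were called for the slope alone. In simulated data this fit missed nearly all differences for genes given a small slope on Drd1 and found most for genes given a larger one, so that a difference not called over all 416 libraries does not show equal slopes. Isl1 had a slope of 0.0038 ± 0.043 there (adjusted p = 0.957) and Sfxn1 one of 0.06 ± 0.026 (adjusted p = 0.0568). The difference for Isl1 was -0.10 ± 0.084 (adjusted p = 0.358). The median slope on Drd1 of the 6 genes was 0.123, beside 0.006 over all genes. Positive differences were also found for markers of neighbouring tissue over all 416 libraries. The median difference was 0.72 for cortical excitatory markers (3 of 9 called positive), 0.431 for ependymal markers (2 of 5) and 0.341 for amygdala and claustrum markers (3 of 4). Among the remaining libraries these medians were -0.268, 0.158 and -0.029. Other lists had negative medians, such as cholinergic interneuron markers (-0.377 over all 416).

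Among the remaining libraries 1 SD of Drd1 was 0.192 on the log2 scale, and 5 of the 6 genes were called, all positive, against 19.5% of all genes called positive. The slope was 0.16 ± 0.013 (SE) for Tac1 (adjusted p = 3.25e-25), 0.14 ± 0.018 for Isl1 (adjusted p = 1.74e-12) and 0.13 ± 0.024 for Pdyn (adjusted p = 1.32e-06). Sfxn1 had a slope of 0.08 ± 0.014 (adjusted p = 1.19e-06) and Chrm4 one of 0.06 ± 0.013 (adjusted p = 2.41e-05). Eya1, with 0.03 ± 0.024, was not called (adjusted p = 0.314). The median slope of the 6 genes was 0.101, beside 0.0026 over all genes. Called positive slopes on Drd1 were not particular to the members. They were found for 12 of 12 genes of all spiny projection neurons, 5 of 6 cholinergic interneuron markers and 3 of 5 indirect-pathway genes, with none negative. Over all 416 libraries these lists gave 8 positive and 1 negative, 1 positive and 2 negative, and 3 positive, in the same order.

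The slope on Drd1 exceeded the slope on Drd2 for 4 of the 6 genes among the remaining libraries, against 14.5% of all genes called in that direction. For Pdyn the difference of slopes was 0.20 ± 0.046 (SE, adjusted p = 0.000141), and its slope on Drd2 at fixed Drd1 was itself negative (-0.08 ± 0.025, adjusted p = 0.0113). With 6 marker list scores added to this fit, Pdyn had slopes of 0.08 ± 0.027 on Drd1 (adjusted p = 0.0242) and -0.11 ± 0.026 on Drd2 (adjusted p = 0.000159). Without Drd2 held fixed, its correlation with Drd1 was not called after the same scores were regressed out. For Isl1 the difference was 0.14 ± 0.035 (adjusted p = 0.000418), for Tac1 0.13 ± 0.026 (adjusted p = 8.18e-06) and for Sfxn1 0.07 ± 0.027 (adjusted p = 0.0334). Chrm4 had near-equal slopes on Drd1 (0.06) and Drd2 (0.07), with a difference of -0.01 and an interval of -0.06 to 0.04. For Eya1 the difference was -0.02, with an interval of -0.11 to 0.07. The intervals are at 95%, and a difference that was not called does not show equal slopes. Pdyn and Tac1 were called for both tests in both sets of libraries, and the difference for Isl1 had the opposite sign over all 416.

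**Figure D4:**
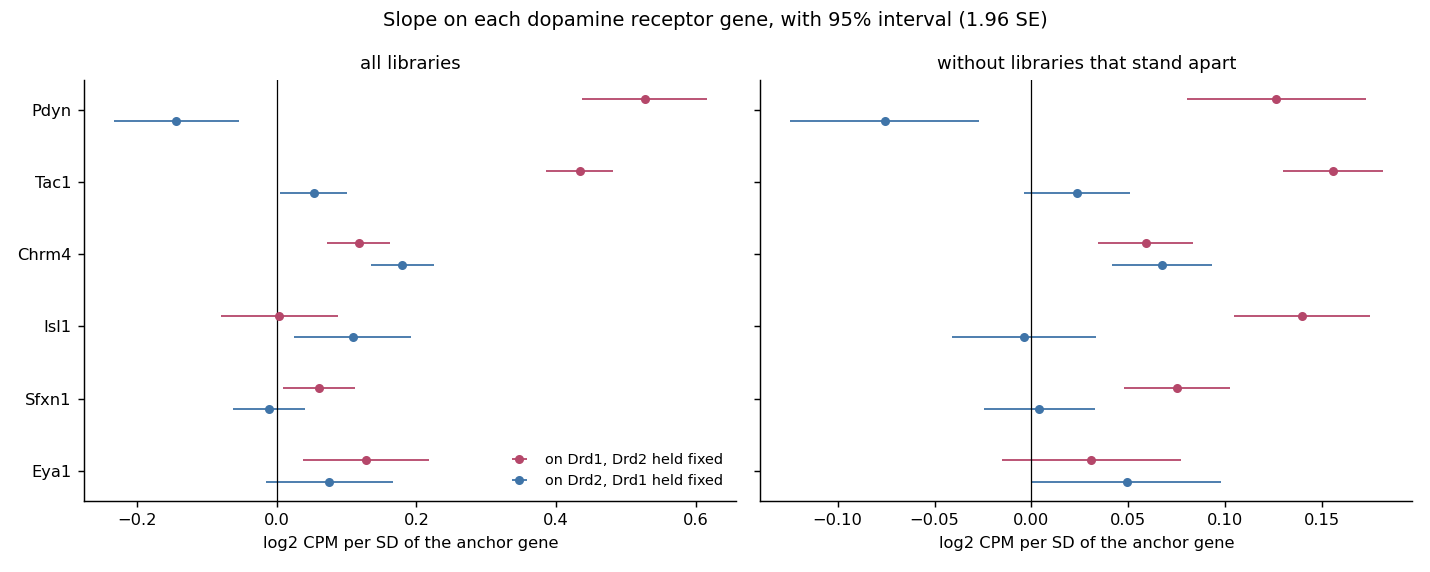
Slope of each gene in log2 CPM per SD of the receptor gene (horizontal axes), on Drd1 with Drd2 held fixed and on Drd2 with Drd1 held fixed. Points are limma estimates and lines are 95% intervals, over all 416 libraries (left) and the remaining libraries (right). On the right Tac1, Isl1, Pdyn and Sfxn1 have Drd1 slopes from 0.08 to 0.16 clear of their Drd2 slopes, while Chrm4 has slopes of 0.06 and 0.07.

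Other genes described as enriched in direct-pathway neurons gave a mixed picture in the same fit. Of all genes, 20.5% had a called positive slope on Drd1 over all 416 libraries and 19.5% among the remaining libraries. Of the 4 tested besides Drd1, 3 had a positive slope on Drd1 in each set of libraries, Gnb4, Slc35d3 and Ebf1 over all 416 and Ebf1, Slc35d3 and Zfp521 among the remaining libraries. There Ebf1, a transcription factor of direct-pathway differentiation, had a slope of 0.11 ± 0.014 (SE, adjusted p = 2.62e-13) and a difference of 0.12 ± 0.027 (adjusted p = 0.000142). Slc35d3, a transporter gene, had a slope of 0.09 ± 0.016 (adjusted p = 1.87e-06) and Zfp521, a zinc finger factor, one of 0.06 ± 0.013 (adjusted p = 5.77e-05). Gnb4, a G protein subunit, had a difference of 0.14 ± 0.041 (adjusted p = 0.00623). Gnb4 was also on the list of amygdala and claustrum markers, so its values cannot be assigned to direct-pathway neurons alone. Of the 5 indirect-pathway genes tested besides Drd2, 4 had a negative difference, led by Adora2a with -0.23 ± 0.020 (adjusted p = 6.23e-23), and the others were Gpr6, Penk and Sp9. The share of all genes called with a negative difference is not given here. Among the same libraries 5 of 12 genes of all spiny projection neurons had a negative difference and 3 a positive one. Of 7 oligodendrocyte markers, 4 had a negative difference and none a positive one. With all 416 libraries the differences called were 1 positive (Gnb4, 0.35) and 1 negative (Zfp521, -0.18) of the 4 direct-pathway genes, and 2 negative of the 5 indirect-pathway genes (Adora2a, -0.38, and Sp9, -0.21).

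Receptors and relatives of the members were set beside them. The share of all genes with a called positive slope was 20.5% over all 416 libraries and 19.5% among the remaining libraries. For the eyes absent, sine oculis and Dach families and for the other sideroflexins, the positive counts among the remaining libraries were near that share. Of 5 measured genes for dynorphin and tachykinin receptors and the other tachykinin precursors, 3 had a positive slope on Drd1 in both sets of libraries. Among the remaining libraries Tacr1, the substance P receptor, had a slope of 0.12 ± 0.015 (SE, adjusted p = 3.34e-13), Tacr3, the neurokinin B receptor, one of 0.27 ± 0.054 (adjusted p = 7.47e-06) and Oprk1, the kappa opioid receptor, one of 0.12 ± 0.027 (adjusted p = 0.000107). Of 8 tested genes of the eyes absent, sine oculis and Dach families, 2 had a positive and 2 a negative slope among the remaining libraries, against 2 positive and 1 negative with all 416. The positive ones were Dach1 (0.14 ± 0.010, adjusted p = 8.4e-32) and Six3 (0.12 ± 0.010, adjusted p = 3.95e-25), but Six3 had a negative slope over all 416 libraries (-0.12 ± 0.038, adjusted p = 0.00951). Of the 4 other sideroflexins, Sfxn2 had a positive slope (0.04 ± 0.014, adjusted p = 0.00572) and Sfxn5 a negative one (-0.04 ± 0.0094, adjusted p = 2.53e-05) among the remaining libraries. With all 416 libraries none of the 4 had a positive slope that was called (Sfxn2 0.05 ± 0.026, adjusted p = 0.134), and Sfxn3 (-0.05 ± 0.019, adjusted p = 0.017) and Sfxn5 (-0.16 ± 0.018, adjusted p = 5.81e-15) had negative ones. Of 7 LIM-homeodomain and partner factors, 3 had a positive slope and none a negative one among the remaining libraries, against 5 positive and none negative with all 416.

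No member differed between the sexes by the edgeR test over all 416 libraries (0 of 6 called, and 2.86% of all genes). DESeq2 also called 0 (2.66% of all genes), and 1 member had an unadjusted p under 0.05. That gene was Sfxn1. Its level in CPM over libraries labelled female had a lowest value of 32.2, a median of 44.7 and a highest value of 66.97, against 28.9, 43.7 and 69.5 over libraries labelled male. The ranges overlapped almost wholly. The mean was 45.2 ± 6.23 CPM (SD) for female and 43.5 ± 5.81 CPM (SD) for male libraries of the 3 generations, with a log2 fold change of 0.06 ± 0.019 (SE, edgeR, adjusted p = 0.0788). Without the libraries that stood apart the log2 fold change was again 0.06 and the gene was called (edgeR, adjusted p = 0.0382; 5.9% of all genes called). It was likewise called without the libraries whose Xist went against the label (adjusted p = 0.043; 4.75% of all genes), and with 6 marker list scores as covariates (adjusted p = 0.0248; 4.99% of all genes). It was also called without the single library of highest Sfxn1, male, generation 22, replicate 57 (69.5 CPM, adjusted p = 0.0463).

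The other members gave log2 fold changes for female minus male of 0.04 (Pdyn, 95% interval -0.03 to 0.11), 0.04 (Chrm4, -0.01 to 0.09), 0.01 (Eya1, -0.05 to 0.08), -0.0036 (Tac1, -0.07 to 0.07) and -0.04 (Isl1, -0.09 to 0.02). Drd1 gave 0.01 (-0.05 to 0.07). The median of the 6 genes was 0.026, beside -0.002 over all genes. The sex by generation interaction was called for 0 of 6 members (edgeR, 0.322% of all genes), with no unadjusted p under 0.05, and DESeq2 called 0 (0.088% of all genes). The lowest adjusted p was 0.745, for Pdyn.

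Pdyn and Chrm4 were lower in generation 23 than in generation 21. Pdyn had a lowest, a median and a highest level of 0.305, 75.5 and 122.02 CPM in generation 21, 21.04, 67.4 and 121.5 CPM in generation 22, and 39.1, 63.4 and 103.7 CPM in generation 23. The ranges of the generations overlapped throughout, and the medians stood in descending order. For generation 23 minus 21 the log2 fold change of Pdyn was -0.23 ± 0.044 (SE, edgeR, adjusted p = 1.03e-06), with means of 63.7 ± 13.2 CPM in generation 23 and 74.8 ± 18.7 CPM in generation 21 (SD over 72 female and 75 male libraries in generation 23 and over 76 female and 74 male libraries in generation 21). Chrm4 had a lowest, a median and a highest level of 1.99, 38.98 and 56.98 CPM in generation 21, 10.04, 37.7 and 47.3 CPM in generation 22, and 24.8, 34.7 and 47.4 CPM in generation 23. Its log2 fold change for generation 23 minus 21 was -0.16 ± 0.032 (SE, edgeR, adjusted p = 2.57e-06). Isl1 was also called (-0.08 ± 0.034, edgeR, adjusted p = 0.0385), so that 3 of 6 members were lower, against 32.6% of all genes called lower and 58.3% called in either direction. Without the libraries that stood apart 4 of 6 were lower (29.9% of all genes), with Tac1 (-0.09, edgeR, adjusted p = 0.0037) beside these 3. The median over the 6 genes was -0.071, beside -0.017 over all genes.

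For generation 22 minus 21, Pdyn alone was called (-0.15 ± 0.046, SE, edgeR, adjusted p = 0.00322), against 46.6% of all genes in either direction and 24.5% called lower. Without the libraries that stood apart 3 of 6 were called lower (21% of all genes), Chrm4 with -0.09 (edgeR, adjusted p = 0.00226) and Tac1 with -0.10 (adjusted p = 0.00434) beside Pdyn. Leaving out only the library female, generation 21, replicate 34, also gave these 3 calls. For generation 23 minus 22, Eya1 (-0.14 ± 0.043, edgeR, adjusted p = 0.0115), Isl1 (-0.12 ± 0.036, adjusted p = 0.0142) and Chrm4 (-0.09 ± 0.034, adjusted p = 0.045) were called lower, 3 of 6 against 9.63% of all genes called lower and 18.2% in either direction. Chrm4 was no longer called without the library male, generation 22, replicate 57 (adjusted p = 0.051). Sfxn1 gave log2 fold changes between 0.001 and 0.0107 in the 3 pairs of generations, the widest 95% interval being -0.04 to 0.06. The pairs of generations share libraries, so their values are not independent. Drd1 itself was not called in any pair over all 416 libraries (-0.05 for generation 23 minus 21, edgeR, adjusted p = 0.25). Without the libraries that stood apart it was called lower in generation 23 than in generation 21 (-0.08, adjusted p = 0.000641) and than in generation 22 (-0.10, adjusted p = 0.000645). Leaving out the library female, generation 21, replicate 34, gave a call for Tac1 in generation 23 minus 21 (-0.08, adjusted p = 0.0484).

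Markers of neighbouring tissue moved with generation. Of all genes, 58.3% were called in either direction for generation 23 minus 21 and 18.2% for generation 23 minus 22. For generation 23 minus 21, 32.6% of all genes were called lower, and 29.9% without the libraries that stood apart. Of 9 cortical excitatory markers, 8 were higher in generation 23 than in generation 21, with a median log2 fold change of 1.458, and 8 were higher in generation 23 than in generation 22. Without the libraries that stood apart all 9 were higher in both pairs. Their summed level had a median of 104.5 CPM (70.9 to 958) in generation 21, 121.03 CPM (70.6 to 1089.5) in generation 22 and 264.7 CPM (72.9 to 976) in generation 23, and no marker was at 0 in all libraries of a generation. Of 7 thalamic markers, 6 were lower in generation 23 than in generation 21, a direction that rested on the libraries that stood apart. Without those libraries 1 was lower and 2 were higher, and the highest summed level in generation 21 was 363.9 CPM. The summed levels of all 416 libraries had a median of 168.8 CPM (116.4 to 4214) in generation 21, 173.9 CPM (149.7 to 243.04) in generation 22 and 177.8 CPM (141.97 to 507) in generation 23. With 6 marker list scores as covariates, Pdyn (-0.17, edgeR, adjusted p = 0.00114) and Chrm4 (-0.14, adjusted p = 7.11e-05) kept their calls for generation 23 minus 21 (51.1% of all genes called). Isl1 turned to 0.08 (adjusted p = 0.0443). For generation 22 minus 21 the same fit called 4 members, Pdyn (-0.18), Chrm4 (-0.11) and Tac1 (-0.10) lower and Isl1 (0.08) higher (45% of all genes called). For generation 23 minus 22 (6.75% of all genes called) no call of the 3 remained, and Tac1 was called instead with 0.13 (adjusted p = 0.0227). All 6 tested indirect-pathway genes were lower in generation 23 than in generation 21, led by Sp9 (-0.22), Adora2a (-0.25) and Gpr6 (-0.22), beside 2 of 5 other direct-pathway genes, Zfp521 (-0.14) and Slc35d3 (-0.19). Without the libraries that stood apart 6 of 6 indirect-pathway and 3 of 5 other direct-pathway genes were lower. The labels name no batch, so generation and any batch that went with it cannot be told apart.

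**Figure D5:**
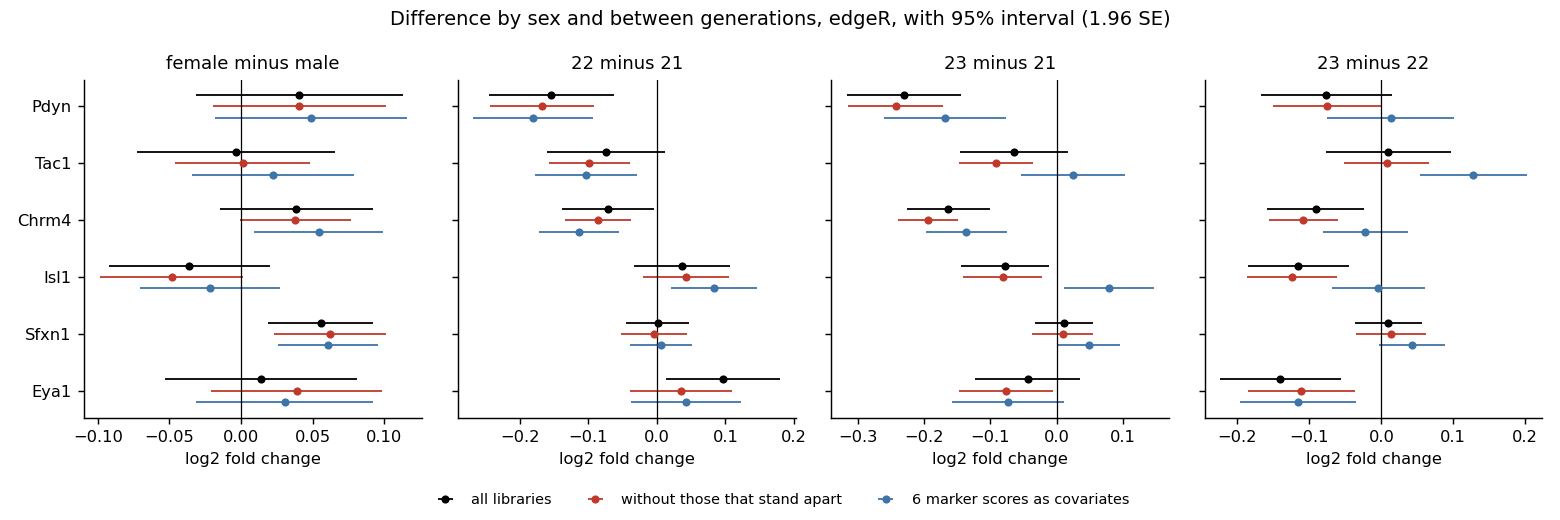
Log2 fold change of each gene (horizontal axes) for female minus male and for the 3 pairs of generations, from edgeR with 95% intervals. Black is all 416 libraries, red is without the 29 that stood apart, and blue is with 6 marker scores as covariates. Pdyn lies below 0 in all 3 fits for generation 23 minus 21 (-0.23, -0.24 and -0.17), and Isl1 changes side with the marker scores (0.08).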

How the data were processed

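The authors deposited 1 table of estimated counts per Ensembl gene ID for 416 libraries. Per the labels' protocols, striatal total RNA was depleted of ribosomal RNA and sequenced from a stranded kit as 100 bp pairs. The aligner, counter, build and annotation are not given in the sources used here, and 23.8% of the values were not whole. Symbols were joined by gene ID from GENCODE M21 (98.9% matched). Counts were rounded, which moved 0.005% of the total. The lowest library total was 20331737.

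Genes passing filterByExpr (minimum count 10) were fitted with edgeR 4.0.16 (TMM, quasi-likelihood, robust) under R 4.3.3 with sex and generation, and called at an adjusted p under 0.05. Slopes used limma 3.58.1 on log2 CPM with a prior count of 2. Pearson and Spearman coefficients were tested with 100000 permutations (10000 in alternatives), adjusted over all pairs of a set of libraries. List scores are mean log2 CPM. DESeq2 1.42.0, RLE factors, no filter, covariates and left-out libraries were alternatives. Fits were tested on simulated data, where the Drd1 minus Drd2 difference had low power for small slopes.

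A library stood apart where its median correlation with the others lay more than 4 scaled median absolute deviations low or its total under 0.5 of the median. The members, lists and rules were chosen with earlier results of these data known. Named genes are the members and Drd1, up to 4 called genes of a list by smallest p, and the 5 genes most like Drd1 and 3 most like each member by r among genes averaging 1 or more in log2 CPM, members left out. All tests are two-sided.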

Additional observations from a re-analysis of the deposited data

How the results depend on the processing

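Members called by sex numbered 1 without the libraries whose Xist went against the label (4.75% of all genes called), without those that stood apart (5.9%) and with 6 marker scores (4.99%). When leaving out 1 library the count was 0 to 1. For generation 22 minus 21 the count was 2 with RLE factors or with total count and mitochondrial share as covariates, and 1 to 3 when leaving out 1 library. It was 3 without the libraries that stood apart (21% of all genes called lower) and 4 with marker scores (45% of all genes called). The main fit called 46.6% of all genes for this pair. For generation 23 minus 22 the count was 1 with marker scores (6.75% of all genes called). No share of all genes is given for RLE factors, the technical covariates or single left-out libraries, so those counts cannot be set against one.

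Values near 0 changed sign. The sex difference of Tac1 was 0.0011 without the libraries that stood apart, 0.0222 with marker scores and -0.0095 to 0.004 when leaving out 1 library (0.004 for female, generation 21, replicate 34), and that of Eya1 was -0.0048 with the technical covariates. Sfxn1 for generation 22 minus 21 was -0.0013 without the Xist libraries, -0.0044 without those that stood apart and -0.0064 to -0.0013 when leaving out 1 library (-0.0043 for female, generation 21, replicate 34). With marker scores generation 23 minus 21 gave 0.0244 for Tac1 and 0.0787 for Isl1, and generation 23 minus 22 gave 0.0127 for Pdyn. Tac1 in generation 23 minus 22 was -0.0134 with the technical covariates.

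Pairs of members called numbered, among the remaining libraries (416 less the 29 that stood apart), 5 with marker scores or the spiny projection neuron score regressed out, 6 within generation 21, 5 within generation 22 and 7 within libraries labelled male. The r with Drd1 fell below the threshold for Pdyn (0.019 with marker scores, 0.146 within generation 21) and Eya1 (0.144 within generation 22) among the remaining libraries. Over all 416 it did so for Isl1 (0.093 within generation 21, 0.139 within libraries labelled female), and for Sfxn1 (0.024) and Eya1 (0.073) with the spiny projection neuron score regressed out. It changed sign for Isl1 (-0.342) with that score over all 416, for Chrm4 (-0.016) and Eya1 (-0.065) with it among the remaining libraries, and for Eya1 within generation 22 (-0.111).

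With that score regressed out of all 416, pairs turned negative for Isl1 with Pdyn (-0.217), Tac1 (-0.295) and Chrm4 (-0.188), for Sfxn1 with Pdyn (-0.111) and Chrm4 (-0.225), and for Eya1 with Pdyn (-0.077), Tac1 (-0.011), Isl1 (-0.225) and Sfxn1 (-0.112). Within generation 22, Eya1 turned with Pdyn (-0.284), Tac1 (-0.164), Chrm4 (-0.082) and Isl1 (-0.121). Eya1 with Pdyn was -0.009 by Spearman's rho, -0.119 within libraries labelled male and -0.076 without those that stood apart. Eya1 with Sfxn1 was -0.089 within generation 23, -0.014 within libraries labelled male, -0.015 without those that stood apart and -0.022 with marker scores, which also gave -0.006 for Eya1 with Isl1. Isl1 with Pdyn was -0.019 within generation 21.

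The difference of Drd1 and Drd2 slopes was called for 4 members among the remaining libraries (14.5% of all genes called in that direction). The count was also 4 with Adora2a in place of Drd2 or with marker scores, where the share of all genes is not given. For Isl1 it was 0.1434 among the remaining libraries, 0.0291 with Adora2a, and 0.0899 and 0.1386 among the remaining libraries with Adora2a and with marker scores. For Eya1 it was -0.0182 among the remaining libraries, -0.0907 without the Xist libraries, -0.042 with Adora2a and -0.0574 with both changes. For Chrm4 it was 0.0001 among the remaining libraries with marker scores. The cause was not tested for any of these. The settings that join a second choice to the remaining libraries were chosen after seeing the data. Over all alternatives, 645 values kept direction and side of the threshold. The others were classed as weaker (43), stronger (34), moved (18) or reversed (48). No paired analysis was possible because the labels carry no replicate numbers that link animals across groups.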

Other observations

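Drd1 and Sfxn1 are neighbours on chromosome 13, and the genes around them were compared as a description, with no test. Among the 416 libraries less the 29 that stood apart, with the means of sex and generation removed, r with Drd1 over 23 tested genes within 1 Mb had a median of -0.116 and a range of -0.765 to 0.545. Sfxn1 had r = 0.401. Rnf44, a ubiquitin ligase gene, had 0.545 and Cplx2, the synaptic protein complexin 2, had 0.344. Sncb, beta-synuclein, had -0.765, Tspan17 had -0.751 and Gprin1 had -0.676. Values of both signs stood among these neighbours. The genes share the libraries, their depth and their scaling, and these genes were chosen after their values were seen.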
